A study of Mus musculus with 6 samples.

Results

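The genes described here license origins of DNA replication and build the replication fork. They are 49 genes chosen by gene symbol, from the origin recognition complex to the enzymes that supply deoxynucleotides, together with E2F1, E2F2, the E cyclins and UHRF1. Each had 1 row in the deposited table of 58735 genes, all 49 are annotated as protein-coding, and all 49 were among the 17142 genes with enough counts to be tested. The study compared 2 groups of 3 RNA-Seq libraries from 22Rv1, a human prostate cancer cell line. One group was parental cells given vehicle. The other was 22Rv1 BL-B01D1_R, a subline grown in rising concentrations of BL-B01D1 until it was resistant. BL-B01D1 is a bispecific antibody-drug conjugate that binds EGFR and HER3 and carries Ed-04, a topoisomerase I inhibitor derived from camptothecin. The subline came from 1 selection, and the sources used here do not say whether the resistant cells were in drug when RNA was taken or whether libraries of a group came from separate cultures. The p-values therefore measure only the spread between these libraries, which may be technical.

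Replication begins in G1, when the origin recognition complex, CDC6 and CDT1 load a double ring of the MCM2 to MCM7 helicase onto DNA. At the start of S phase the kinase CDC7 with its activator DBF4, and cyclin-dependent kinases, turn that ring into a moving helicase by adding CDC45 and the GINS complex. DNA polymerases α, δ and ε then copy both strands, held by the PCNA clamp. Many of these genes are transcribed by E2F factors from late G1 into S phase, so that their mRNA in a culture goes with the share of cells in cycle. In bulk RNA, fewer cells in a phase and less mRNA per cell cannot be told apart. Topoisomerase I inhibitors trap the enzyme on DNA, and the trapped complex is converted to a break when a fork meets it.

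Total counts ranged from 13821639 to 17251491 per library, and the least covered member still had 199 counts in its lowest library. The biological coefficient of variation across all genes was 3.51%. Levels are given as CPM, which is counts per 1000000 counts of a library after scaling by TMM, a method that aligns libraries on the bulk of their genes. Of 9 luminal prostate markers, 5 rose and 3 fell at an FDR of less than 0.05. Among them KRT8, a keratin of luminal cells, rose from 514 ± 5.07 CPM (SD, n = 3) to 538 ± 9.51 CPM (SD, n = 3), and its partner KRT18 fell from 171 ± 5.23 CPM (SD, n = 3) to 151 ± 0.889 CPM (SD, n = 3). Of 7 markers of stromal, immune and endothelial cells, 4 had too few counts to be tested, PTPRC, CD68, PECAM1 and VWF, all under 0.1 CPM on average, and COL1A1 fell from 14.2 ± 1.09 CPM (SD, n = 3) to 11.7 ± 0.558 CPM (SD, n = 3). The summed level of these 7 genes was 15.5 to 17.9 CPM in parental and 13.6 to 14.3 CPM in resistant libraries. Their part in the results was not tested.

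In the resistant subline, mRNA of 31 of the 49 replication genes was slightly lower, and the other 18 did not pass the test. At an FDR of less than 0.05 from edgeR's quasi-likelihood test, 31 of the 49 genes fell and 0 rose, whereas 18.4% of all genes tested fell and 17.1% rose. At an unadjusted p of less than 0.05 from edgeR, 35 were lower and 1 was higher. The share of all genes tested at that unadjusted p was not counted. limma-voom gave 31 lower and 0 higher, and DESeq2 30 and 0. Among the 9578 genes at least as abundant as the least abundant member, 22.9% fell and 21.5% rose. No member passed the study's second threshold, an absolute log2 fold change greater than 1, which 2.84% of all genes tested passed downward and 2.53% upward. The decreases that passed the FDR ranged from 6.43% to 21.3%, with 16 between 10% and 15% and 10 larger than 15%.

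The median log2 fold change of the 49 genes, resistant over parental, was −0.16, a decrease of 10.3%, beside a median of 0.0038 over all genes tested. A negative value was found for 45 of the 49 genes, and for 49.4% of all genes. The exceptions were ORC5, POLA2, CCNE2 and CDC7, none of which passed the FDR, and CDC7 turned to −0.0014 when libraries were scaled by their size alone and to −0.05 without parental library 3. Without parental library 1, 42 genes were negative, as ORC4 (0.01), TYMS (0.03) and E2F1 (0.03) turned positive without passing the FDR. Every resistant library lay under every parental library for 34 of the 49 genes, and for 22.8% of all genes tested. Summed over the set, the level was 7744, 7665 and 7567 CPM in the parental libraries and 6812, 6756 and 6786 CPM in the resistant libraries. The sum was thus 11.4% lower in resistant cells, while libraries of a group differed by at most 2.34%. Without MCM4, MCM7 and PCNA, the most abundant members in CPM, the sum was 10.8% lower.

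**Figure D1:**
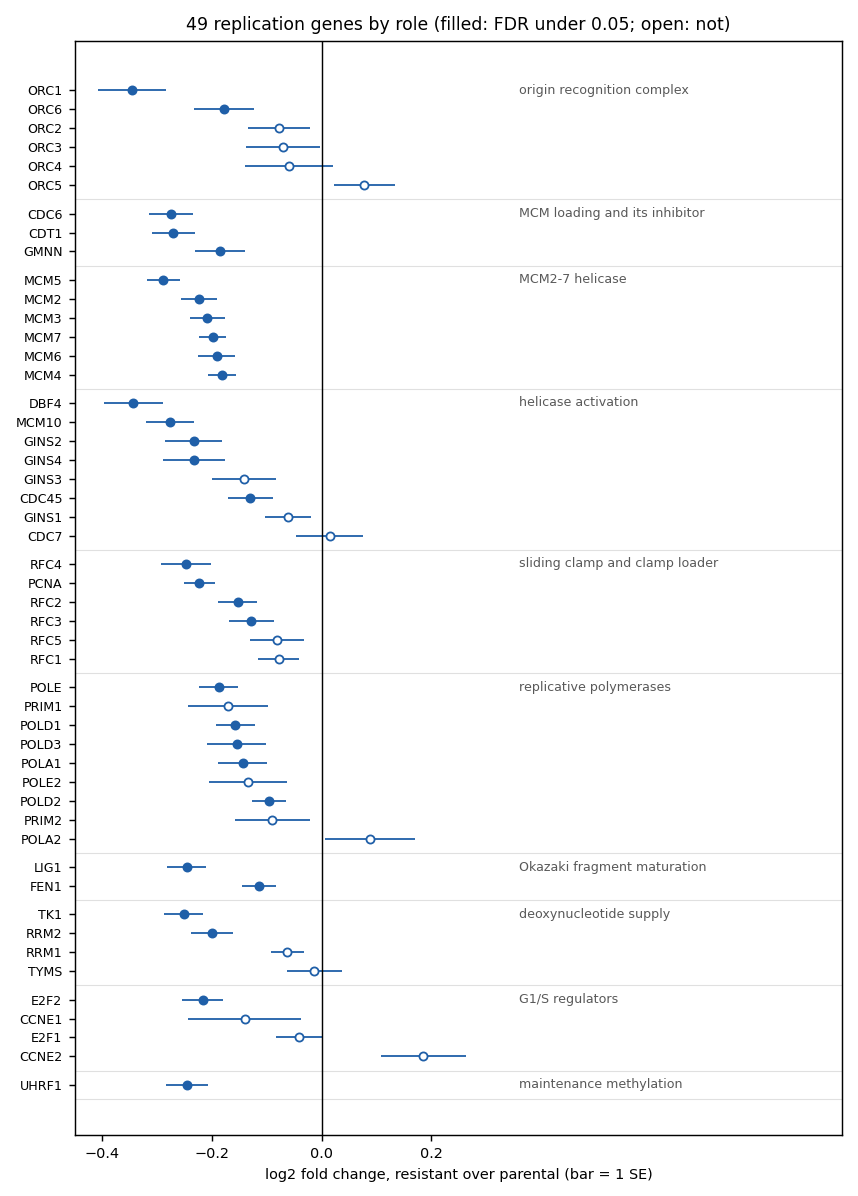
Log2 fold change of each of the 49 replication genes (horizontal axis, resistant over parental; bars are 1 SE from edgeR), grouped by role and ordered within each group. Filled points passed an FDR of 0.05 and all 31 of them lie left of 0, between −0.35 and −0.10; 4 open points lie right of 0.

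The heat map of single libraries shows how evenly the decrease ran through the 3 resistant libraries. In 34 genes all 3 resistant values lay under all parental values. The same held for 22.8% of all genes tested and 27.3% of genes at least as abundant as the least abundant member. Genes whose groups overlapped occurred in most roles, among them 4 subunits of the origin recognition complex, CDC7, RFC1, RFC5, POLA2, PRIM1, POLE2, RRM1, TYMS, E2F1 and both E cyclins.

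**Figure D2:**
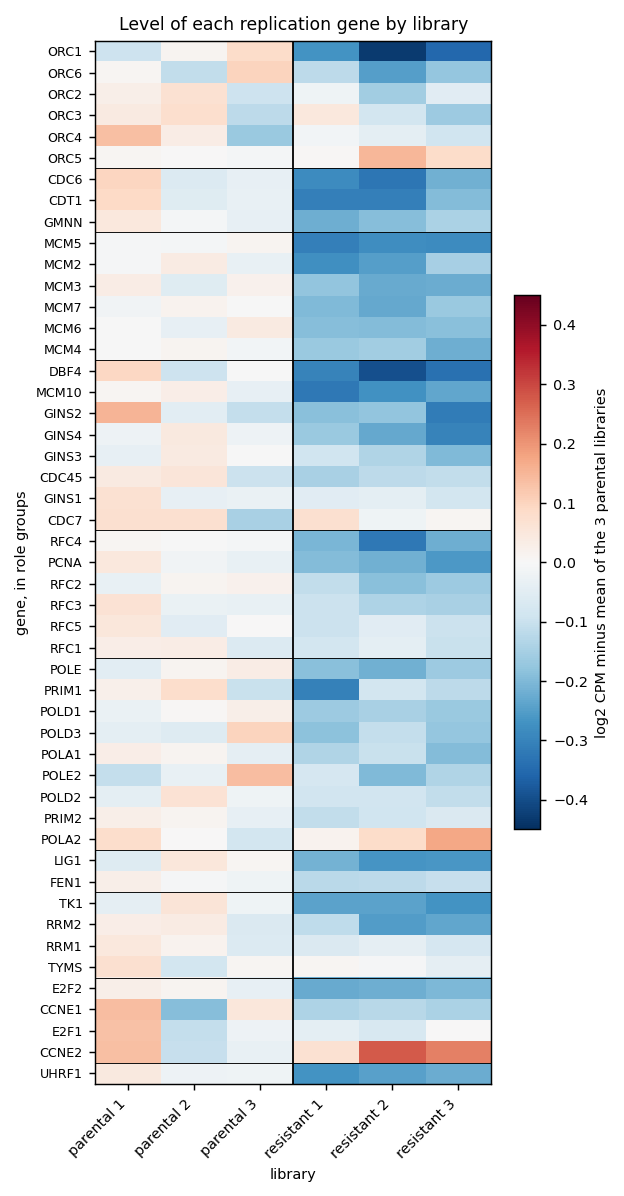
Level of each replication gene in each library, as log2 CPM minus the mean of the 3 parental libraries (blue is lower, red is higher; rows are genes in role groups, columns are the 3 parental and 3 resistant libraries). Every resistant library is under every parental library in 34 of the 49 rows, and in 22.8% of all genes tested.

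All 6 genes of the MCM2 to MCM7 helicase fell, beside 22.9% of genes at least as abundant as the least abundant member. The subunit genes had log2 fold changes from −0.29 to −0.18, and in each of them the groups did not overlap. Summed over the subunits, CPM was 2632, 2646 and 2639 in parental and 2286, 2271 and 2300 in resistant libraries, a decrease of 13.4% beside a spread of at most 1.28% within a group. MCM5 (ENSG00000100297, chromosome 22, 35400063 to 35425430 of hg38) had the largest change of the ring, with 296, 295 and 299.9 CPM in parental and 240.3, 245 and 244 CPM in resistant libraries. Its resistant libraries lay close together and far under the parental ones (log2 fold change −0.29, SE 0.0298, FDR 1.23e-10 from edgeR). MCM2, which CDC7 phosphorylates when the helicase is activated, was at 263, 271 and 258 CPM in parental and 218, 222 and 238 CPM in resistant libraries. MCM2, MCM3 and MCM7 had log2 fold changes of −0.22, −0.21 and −0.20, and MCM6 and MCM4 of −0.19 and −0.18. MCM7, the most abundant subunit per length, fell from 979.6 ± 10.3 CPM (SD, n = 3) to 853 ± 19.0 CPM (SD, n = 3).

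The factors that load this ring fell too. CDC6 (ENSG00000094804, chromosome 17, 40287633 to 40304657), the ATPase that joins the origin recognition complex to recruit MCM proteins, was at 181, 162 and 165 CPM in parental and 139, 135 and 145 CPM in resistant libraries. The groups did not overlap, although parental library 1 stood above the other two (log2 fold change −0.28, SE 0.0394, FDR 2.78e-07 from edgeR). CDT1, its partner in loading, was at 194, 175 and 178 CPM in parental and 147, 147 and 159 CPM in resistant libraries (log2 fold change −0.27, FDR 2.72e-07 from edgeR). Geminin (GMNN), the protein that binds and inhibits CDT1, was at 85.1, 81.9 and 80.3 CPM in parental and 70.7, 72.2 and 74.7 CPM in resistant libraries (log2 fold change −0.19, FDR 0.00134 from edgeR). The groups did not overlap for either gene.

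Of the 6 genes of the origin recognition complex, which marks origins on DNA, ORC1 and ORC6 fell, and ORC2, ORC3, ORC4 and ORC5 did not pass the FDR. The share that fell was 33.3%, beside 22.9% of genes at least as abundant as the least abundant member. ORC1 (ENSG00000085840, chromosome 1, 52372829 to 52404459), the subunit known to vary through the cell cycle, had the lowest log2 fold change of all 49 genes. Its level was 46.4, 49.8 and 52.4 CPM in parental and 41.1, 36.7 and 38.8 CPM in resistant libraries, with no overlap (log2 fold change −0.35, SE 0.0625, FDR 1.88e-05 from edgeR). ORC6 had a log2 fold change of −0.18 (FDR 0.00892), which lost significance without parental library 3 (−0.13, FDR 0.0898) or without resistant library 2 (−0.14, FDR 0.0754). The other four subunits had log2 fold changes of −0.08 (ORC2), −0.07 (ORC3), −0.06 (ORC4) and 0.08 (ORC5), and for each of them the groups overlapped. For ORC5 the 95% interval ran from −0.03 to 0.19, so a decrease of the size seen in ORC1 lay outside it.

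Among the genes that turn the loaded ring into a moving helicase, 5 of 8 fell (62.5%). For genes at least as abundant as the least abundant member, the share was 22.9%. DBF4 (ENSG00000006634, chromosome 7, 87876216 to 87909541), the activating subunit of the CDC7 kinase, was at 74.1, 65.1 and 69.4 CPM in parental and 56.5, 52.8 and 55.1 CPM in resistant libraries (log2 fold change −0.34, SE 0.0537, FDR 1.49e-06 from edgeR). The kinase subunit CDC7 was at 50.0, 50.0 and 43.0 CPM in parental and 50.0, 47.0 and 47.9 CPM in resistant libraries. Its log2 fold change was 0.01, with a 95% interval from −0.10 to 0.13. The groups were thus apart for the activator and overlapped for the kinase. MCM10 (ENSG00000065328, chromosome 10, 13161554 to 13211104), which acts when the helicase starts to move, was at 97.7, 99.0 and 94.5 CPM in parental and 77.6, 80.3 and 82.5 CPM in resistant libraries (log2 fold change −0.28, SE 0.0436, FDR 1.69e-06 from edgeR). Of the 4 GINS subunits, GINS2 (104, 90.1 and 86.5 CPM in parental and 81.8, 82.3 and 74.8 CPM in resistant libraries, log2 fold change −0.23) and GINS4 (−0.23) fell, whereas GINS3 (−0.14, FDR 0.0572) and GINS1 (−0.06, FDR 0.278) did not pass. Without parental library 1 the change of GINS2 was −0.15 (FDR 0.0157). GINS3 passed without parental library 1 (−0.16, FDR 0.0481). CDC45, the third part of the active helicase, had 126, 127 and 114 CPM in parental and 110.4, 113 and 113 CPM in resistant libraries. The highest resistant library came close to the lowest parental one. Its decrease was among the 5 smallest that passed (log2 fold change −0.13, SE 0.0409, FDR 0.0107 from edgeR), and it lost significance without parental library 2 (FDR 0.0837) or resistant library 1 (FDR 0.0549).

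At the fork itself, the sliding clamp PCNA was at 513, 491 and 485 CPM in parental and 434, 427 and 415 CPM in resistant libraries, without overlap (log2 fold change −0.22, FDR 1.74e-08 from edgeR). The clamp loader, which opens PCNA and closes it around DNA, has 5 subunits, of which RFC2 (−0.15), RFC3 and RFC4 fell. With PCNA, 66.7% of clamp and loader genes fell, beside 22.9% of genes at least as abundant as the least abundant member. RFC4 (ENSG00000163918, chromosome 3, 186789880 to 186807058) was at 85.4, 84.7 and 84.2 CPM in parental and 73.5, 67.8 and 72.8 CPM in resistant libraries (log2 fold change −0.25, SE 0.0462, FDR 3.17e-05 from edgeR). RFC3 was at 115, 108 and 107 CPM in parental and 103, 99.8 and 99.4 CPM in resistant libraries, a narrower gap (log2 fold change −0.13, SE 0.0411, FDR 0.0125 from edgeR). It lost significance without parental library 1 (−0.09, FDR 0.104), resistant library 2 (FDR 0.0503) or resistant library 3 (FDR 0.0501). RFC1, the large subunit, had a log2 fold change of −0.08 (FDR 0.0922; FDR 0.0320 without parental library 3), and RFC5 of −0.08 (FDR 0.205).

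Of 9 genes of the replicative polymerases, 5 fell, and 4 (POLA2, PRIM1, PRIM2 and POLE2) did not pass. Thus 55.6% fell, beside 22.9% of genes at least as abundant as the least abundant member. POLE (ENSG00000177084, chromosome 12, 132623753 to 132687365), the catalytic subunit of the leading-strand polymerase, had the lowest log2 fold change of the 9, with 174, 181 and 184 CPM in parental and 158, 155 and 161 CPM in resistant libraries (log2 fold change −0.19, SE 0.0349, FDR 2.90e-05 from edgeR). The second subunit of that enzyme, POLE2, had −0.13 (FDR 0.147). Polymerase δ, which copies the lagging strand, fell in its catalytic subunit POLD1 (−0.16) and in POLD3 (−0.16) and POLD2. POLD2 had 296, 319 and 301 CPM in parental and 287, 287 and 282 CPM in resistant libraries, so that the gap between the groups was narrower than the range of the parental libraries. It was the smallest decrease to pass (log2 fold change −0.10, SE 0.0309, FDR 0.013 from edgeR). POLD2 did not pass without parental library 2 (−0.06, FDR 0.155) or resistant library 3 (−0.09, FDR 0.0558).

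Polymerase α with its primase starts each new strand. Its catalytic subunit POLA1 was at 91.7, 90.7 and 87.4 CPM in parental and 81.9, 84.0 and 78.5 CPM in resistant libraries (log2 fold change −0.14, SE 0.0444, FDR 0.00905 from edgeR), and its FDR was 0.0694 without resistant library 3. The second subunit POLA2 had a log2 fold change of 0.09 (95% interval −0.07 to 0.25). The primase genes PRIM1 (−0.17, FDR 0.063) and PRIM2 (−0.09, FDR 0.334) did not pass. PRIM1 passed without parental library 3 (−0.22, FDR 0.0314) or resistant library 2 (−0.21, FDR 0.0492). POLD3 (FDR 0.0219) did not pass without parental library 3 (FDR 0.169), resistant library 1 (FDR 0.0897) or resistant library 3 (FDR 0.0698), nor with DESeq2 (FDR 0.0612).

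Both genes of Okazaki fragment maturation fell, beside 22.9% of genes at least as abundant as the least abundant member. LIG1 (ENSG00000105486, chromosome 19, 48115445 to 48170603), the ligase that seals the fragments, was at 168, 181 and 176 CPM in parental and 151, 146 and 146 CPM in resistant libraries (log2 fold change −0.25, SE 0.036, FDR 4.19e-07 from edgeR). FEN1 (ENSG00000168496, chromosome 11, 61792637 to 61797244), the nuclease that trims the flap before ligation, was at 252, 246 and 244 CPM in parental and 227, 228 and 229.9 CPM in resistant libraries. The decrease of FEN1 was small but larger than the spread within either group (log2 fold change −0.11, SE 0.0309, FDR 0.00304 from edgeR).

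Of the 4 enzymes that supply deoxynucleotides, TK1 and RRM2 fell and RRM1 and TYMS did not pass. Thus 50.0% fell, beside 22.9% of genes at least as abundant as the least abundant member. TK1 (ENSG00000167900, chromosome 17, 78174075 to 78187233), the thymidine kinase of the salvage pathway, was at 175, 187 and 177 CPM in parental and 152, 152 and 149 CPM in resistant libraries (log2 fold change −0.25, SE 0.0354, FDR 1.87e-07 from edgeR). TYMS, which makes thymidylate de novo, was at 72.5, 65.1 and 69.2 CPM in parental and 69.3, 68.7 and 66.9 CPM in resistant libraries, and the groups overlapped. Its log2 fold change of −0.01 had a 95% interval from −0.11 to 0.08. RRM2, the subunit of ribonucleotide reductase whose level follows S phase, was at 177, 178 and 166 CPM in parental and 161, 146 and 148 CPM in resistant libraries (log2 fold change −0.20, FDR 4.18e-05 from edgeR). The large subunit RRM1 had a log2 fold change of −0.06 (FDR 0.0985). RRM1 passed without parental library 3 (−0.09, FDR 0.0179).

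Of the 4 G1/S regulators in the set, 1 fell and 3 did not pass. Among genes at least as abundant as the least abundant member, 22.9% fell. The share that fell in this role was thus near that of such genes. E2F2 (ENSG00000007968, chromosome 1, 23506430 to 23531220), an activating E2F factor, was at 143, 141 and 136 CPM in parental and 119.8, 120.3 and 122 CPM in resistant libraries (log2 fold change −0.22, SE 0.0371, FDR 7.69e-06 from edgeR). E2F1 was at 161, 137 and 145 CPM in parental and 143, 140.1 and 147 CPM in resistant libraries, and all resistant values lay within the parental range. Its log2 fold change was −0.04, with a 95% interval from −0.12 to 0.04. Cyclin E1 (CCNE1) had a log2 fold change of −0.14 (FDR 0.308) from 199 to 280 counts per library, the lowest coverage of the set. Cyclin E2 (CCNE2) was at 28.4, 24.1 and 25.3 CPM in parental and 27.1, 31.3 and 30.3 CPM in resistant libraries, the highest log2 fold change of the 49 genes (0.19, SE 0.0776, FDR 0.0584 from edgeR). It passed as higher without parental library 1 (0.26, FDR 0.0129) or without resistant library 1 (0.25, FDR 0.0260). UHRF1 (ENSG00000276043, chromosome 19, 4903080 to 4962154), which reads hemimethylated DNA behind the fork and brings in the maintenance methyltransferase, was at 137, 131 and 131 CPM in parental and 110.2, 112 and 114 CPM in resistant libraries (log2 fold change −0.25, SE 0.0383, FDR 1.47e-06 from edgeR).

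**Figure D3:**
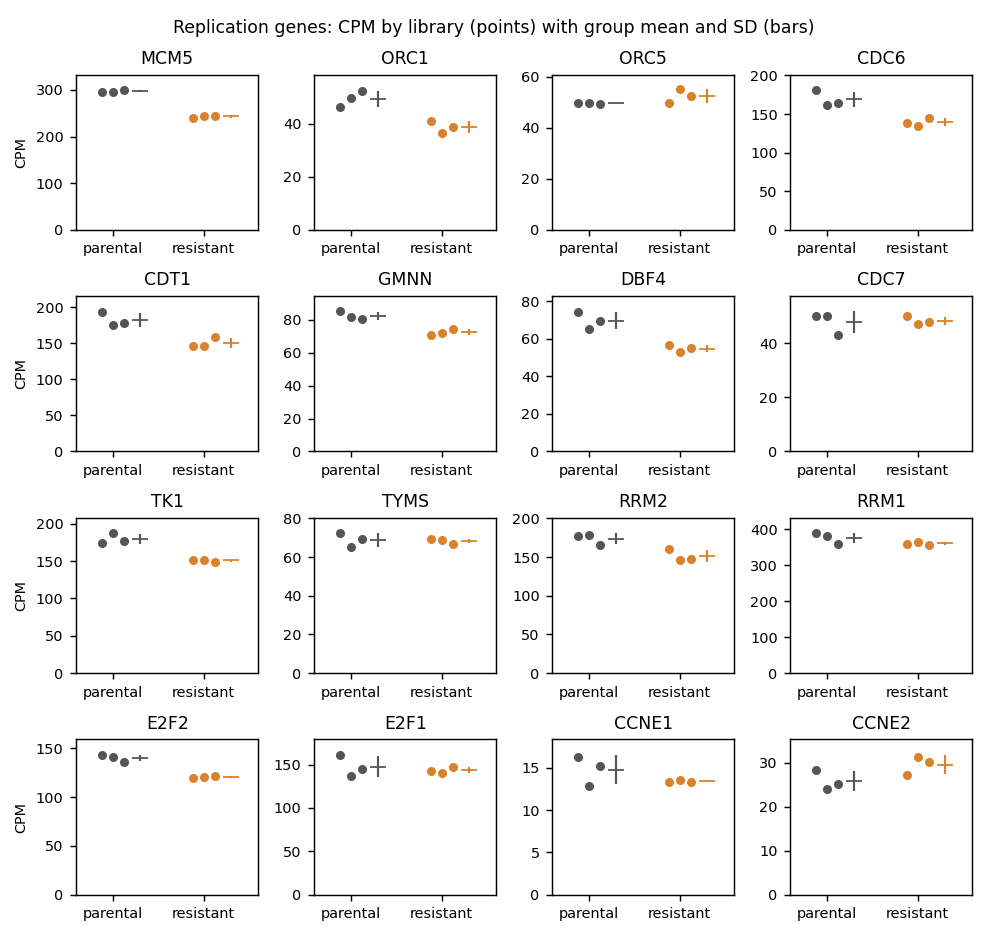
CPM of 16 replication genes in each library (points; vertical axes start at 0 and differ between panels), with the group mean and SD beside them. DBF4, ORC1, TK1, RRM2 and E2F2 are lower in all resistant libraries, while CDC7, ORC5, TYMS, RRM1 and E2F1 overlap between the groups.

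Some partners had unlike log2 fold changes, and these were not tested against each other. The ratio of partners' levels per length (FPKM) was computed in each library for 10 pairs chosen after the values were seen. These ratios are given as a description, with no test. DBF4 over CDC7 was 1.15, 1.01 and 1.25 in parental and 0.876, 0.873 and 0.893 in resistant libraries. The ratio of ORC1 to ORC5 was 1.096, 1.18 and 1.25 in parental and 0.974, 0.786 and 0.871 in resistant libraries. For both pairs the FPKM of the first gene exceeded that of the second in every parental library and was under it in every resistant library. TK1 over TYMS was 3.20, 3.82 and 3.40 in parental and 2.91, 2.94 and 2.96 in resistant libraries, and CCNE2 over CCNE1 was 1.01, 1.08 and 0.96 in parental and 1.18, 1.34 and 1.31 in resistant libraries. The last was the only pair of the 10 whose ratio was higher in every resistant library. The other 9 ratios were lower in every resistant library. These counts depend on which pairs were chosen and on which gene was put first, and do not describe other pairs. CDT1 over GMNN had the smallest difference between group means, −5.76%.

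The order of abundance within the set was nearly the same in both lines. PCNA was the most abundant member per length, at 337 ± 9.95 FPKM (SD, n = 3) in parental and 289 ± 6.43 FPKM (SD, n = 3) in resistant libraries, followed by MCM7 at 223 ± 2.35 and 195 ± 4.33 FPKM. ORC4 was the least abundant, at 2.82 ± 0.295 and 2.71 ± 0.0742 FPKM, so that PCNA exceeded it 119.9-fold in parental cells. The 10 most abundant genes of one line were the 10 most abundant of the other, 24 genes kept their exact place, and 5 moved by more than 3 places. Neighbors in this order often did not differ beyond their spread, as for FEN1 (99.8 ± 1.65 FPKM) and TK1 (96.6 ± 3.54 FPKM) in parental cells. Across the 49 genes, more abundant genes had somewhat lower log2 fold changes (Spearman's rho of parental CPM with log2 fold change −0.400, Pearson's r of log2 CPM −0.398). The points share the same 6 libraries and the parental level enters both axes, and genes are not independent replicates. Gene length had no such relation (rho −0.0902).

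**Figure D4:**
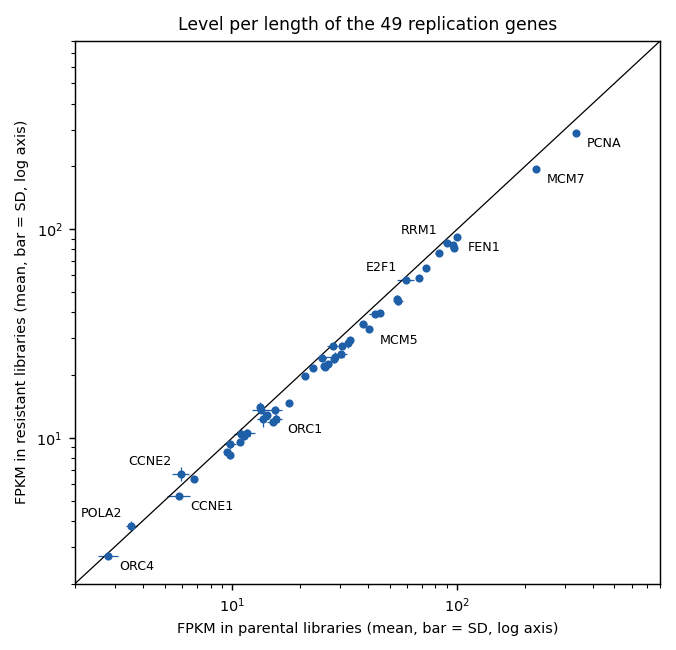
Mean FPKM of each replication gene in the 3 parental (horizontal) and 3 resistant libraries (vertical), both on log axes, with SD as bars and the line of equal level. Most points lie just under the line from ORC4 at 2.82 to PCNA at 337 FPKM in parental cells, while ORC5, CDC7, POLA2 and CCNE2 lie above it.

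Other genes of the same processes were read from the same test. Of 33 further genes of the fork, of origin firing and of chromatin assembly, 15 fell, 1 rose and 17 did not pass, with a median log2 fold change of −0.09. These are shares of 45.5% lower and 3.03% higher, beside 18.4% and 17.1% of all genes tested. DNA2, a nuclease and helicase that trims long flaps, was at 54.8, 58.5 and 52.6 CPM in parental and 43.9, 43.3 and 40.0 CPM in resistant libraries (log2 fold change −0.39, SE 0.0592, FDR 1.07e-06 from edgeR). CHAF1B, a subunit of the assembly factor that places histones behind the fork, was at 78.8, 78.3 and 74.1 CPM in parental and 56.8, 62.0 and 62.1 CPM in resistant libraries (log2 fold change −0.36, SE 0.0502, FDR 1.90e-07 from edgeR). The groups did not overlap for either gene. DNMT1, the maintenance methyltransferase that UHRF1 recruits, had a log2 fold change of −0.24. The origin-firing factors TOPBP1 (−0.23), TICRR (−0.25) and MTBP (−0.28) fell as well. RECQL4 (0.07, FDR 0.114), DONSON (−0.12, FDR 0.157) and DBF4B (−0.01, FDR 0.915 from edgeR), of the same list, did not pass. For RECQL4 every resistant library lay above every parental library. RNASEH2C, a subunit of ribonuclease H2, was the gene that rose, with 47.3, 48.2 and 43.6 CPM in parental and 55.0, 58.7 and 62.5 CPM in resistant libraries (log2 fold change 0.34, SE 0.0584, FDR 8.79e-06 from edgeR).

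Of 13 further genes of nucleotide supply, 3 fell, 2 rose and 8 did not pass. The shares, 23.1% lower and 15.4% higher, were near those of all genes tested (18.4% and 17.1%). CAD, which carries out the first steps of de novo pyrimidine synthesis, stood apart with 161, 156 and 169 CPM in parental and 312, 308 and 299 CPM in resistant libraries (log2 fold change 0.92, SE 0.0331, FDR 2.94e-25 from edgeR). RRM2B, the p53-inducible partner of RRM1, was at 62.4, 60.9 and 53.0 CPM in parental and 74.1, 71.3 and 76.2 CPM in resistant libraries (log2 fold change 0.33, SE 0.0538, FDR 3.91e-06 from edgeR). It rose, whereas RRM2 fell. DCTD, which makes dUMP for TYMS, was at 58.1, 56.0 and 57.4 CPM in parental and 50.3, 48.3 and 50.0 CPM in resistant libraries (log2 fold change −0.20, SE 0.0542, FDR 0.00249 from edgeR).

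Of 33 listed genes of G1/S control outside the set, CCND2 had too few counts to be tested. Of the other 32, 14 fell, 5 rose and 13 did not pass. Thus 43.8% were lower, beside 18.4% of all genes tested, and 15.6% were higher, near the 17.1% of all genes. The inhibitors of cyclin-dependent kinases moved in both directions. CDKN1A, which encodes p21, was at 57.4, 65.6 and 61.2 CPM in parental and 99.96, 104 and 114 CPM in resistant libraries (log2 fold change 0.79, SE 0.0507, FDR 1.24e-16 from edgeR). CDKN2C, which encodes the CDK4 and CDK6 inhibitor p18, was at 108, 110.0 and 112 CPM in parental and 183, 192 and 194 CPM in resistant libraries (log2 fold change 0.79, SE 0.0366, FDR 2.55e-21 from edgeR). CDKN1C, which encodes p57, was low and fell further, from 10.3, 11.9 and 11.2 CPM to 6.03, 5.37 and 4.31 CPM (log2 fold change −1.08, SE 0.138, FDR 2.33e-08 from edgeR). CDKN1B, which encodes p27, fell (−0.31), as did the later E2F factors E2F7 (−0.26) and E2F8 (−0.29) and the S-phase cyclin CCNA2 (−0.33). The E2F factors did not move alike. E2F6 fell (−0.22), E2F5 rose (0.52, FDR 0.000492 from edgeR), and E2F3 (−0.13) and E2F4 (−0.06) did not pass. Among further inhibitor genes, CDKN2B rose (0.46), CDKN2A fell (−0.13) and CDKN2D (0.06) did not pass. RB1, the repressor of E2F factors, rose (0.14), while CDK2 (−0.03, FDR 0.615) and CCND1 (0.03, FDR 0.339) did not pass.

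Genes of G2 and mitosis were also lower. Of 32 G2/M genes, 27 fell, 0 rose and 5 did not pass, with a median log2 fold change of −0.25 (beside −0.16 for the replication genes). The share that fell was 84.4%, beside 18.4% of all genes tested, of which 17.1% rose. The 5 that did not pass were CDK1 (log2 fold change 0.04, FDR 0.543 from edgeR), KIF23 (−0.05), UBE2C (−0.07), NUSAP1 (−0.17) and PRC1 (0.05). At an unadjusted p of less than 0.05 from edgeR, 27 of the 32 were lower and 0 higher, without a count over all genes beside it. CENPE, a kinetochore motor, was at 95.6, 94.98 and 97.3 CPM in parental and 67.7, 79.3 and 76.0 CPM in resistant libraries (log2 fold change −0.37, SE 0.048, FDR 3.38e-08 from edgeR). CCNB2, a mitotic cyclin, was at 99.8, 104 and 102 CPM in parental and 81.0, 79.7 and 76.6 CPM in resistant libraries (log2 fold change −0.37, SE 0.0432, FDR 3.43e-09 from edgeR). PLK1, a mitotic kinase, was at 123, 116 and 119.5 CPM in parental and 95.6, 93.5 and 92.9 CPM in resistant libraries (log2 fold change −0.35, SE 0.0403, FDR 2.22e-09 from edgeR). The groups did not overlap for any of these 3 genes, and the proliferation marker MKI67 had a log2 fold change of −0.23. The summed level of the 32 genes was 4743 to 4790 CPM in parental and 4058 to 4059 CPM in resistant libraries. Whether the 2 gene sets differed from each other was not tested.

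**Figure D5:**
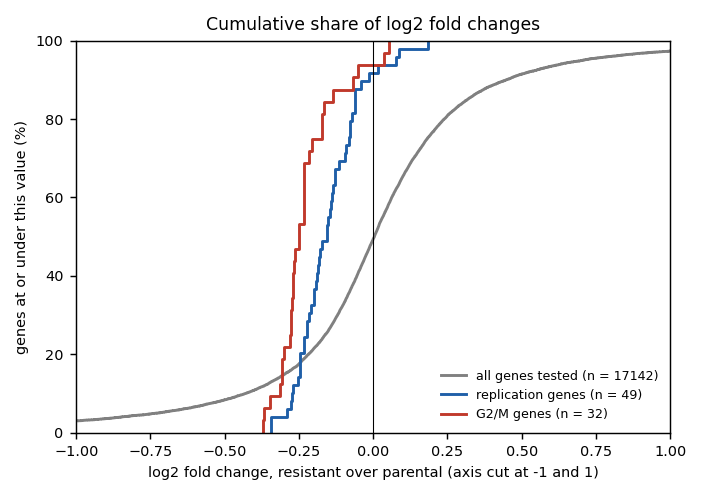
Cumulative share of genes (vertical axis, %) at or under each log2 fold change (horizontal axis, cut at −1 and 1) for all genes tested, the 49 replication genes and 32 G2/M genes. The medians are −0.16 for the replication genes, −0.25 for the G2/M genes and 0.0038 for all genes, and no replication gene is under −0.35.

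The counting method's use of strand was not stated, and 27 of the 49 genes overlap another annotated gene. In 12 of them the most counted overlapping gene had more than 10% of the member's own counts. The largest share was 1163%, for PRIM1 with NACA (log2 fold change 0.01). RFC4 with EIF4A2 (326%, 0.30), RFC5 with WSB2 (294%, 0.18) and GINS2 with GSE1 (279%, −0.17) followed. CCNE2 with INTS8 (254%, 0.01), DBF4 with SLC25A40 (133%, −0.10), TYMS with ENOSF1 (−0.02) and FEN1 with FADS2 (−0.30) were also among the 12. NACA and FADS2 lie on the same strand as their members, so stranded counting alone would not separate those reads. The share of overlapping genes in the members' reads was not tested.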

How the data were processed

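RNA-Seq counts of 6 libraries were used, 3 per group, mapped to their group and replicate number by the sample titles. The labels name mouse as the organism, but the cell line, the genome build and the gene identifiers are human. The submitters' processing notes name fastp, HISAT2 2.0.5, featureCounts 1.5.0-p3 and the hg38 build, and the authors deposited raw counts per gene. The annotation release and strand setting are not given in the sources used here. Gene lengths in bases, in the same deposited table, were used for FPKM. All 6 columns of counts were used.

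Genes were filtered with edgeR's filterByExpr, scaled with TMM and fitted by quasi-likelihood in edgeR 4.0.16 under R 4.3.3 over all 17142 genes, with Benjamini-Hochberg adjustment over all of them. CPM values use TMM-scaled library sizes. The SE was the log2 fold change divided by the square root of the F statistic, and 95% intervals are the log2 fold change ± 1.96 SE. Rose and fell mean an FDR of less than 0.05. Alternatives were DESeq2 1.42.0, voom in limma 3.58.1 (limma is used in the study's methods), 2 other scalings, 2 other filters, the replicate number as a block and each library left out in turn. Full values are given for members with the 5 lowest and 5 highest log2 fold changes among those that passed and the largest change of each role group, and, for the other lists, for the 3 largest changes; further values are chosen by role or after they were seen. The members and lists were chosen with earlier results of these data known. In simulated counts with 200 of 16872 genes changed by 0.2 (log2), edgeR recovered 97, with 3 false calls, and DESeq2 recovered 68.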

Additional observations from a re-analysis of the deposited data

How the results depend on the processing

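The 31 members that fell at an FDR of 0.05 numbered 31 with limma-voom, upper-quartile scaling, no filter and at least 10 counts in every library, 30 with DESeq2 and 35 with library size alone; 27 to 32 fell with one library left out. The number that rose, 0, was 0 to 1 with one library left out. The 1 was CCNE2, without parental library 1 or without resistant library 1. No member passed an absolute log2 fold change of 1 in any fit. The median log2 fold change ranged from −0.17 to −0.15 over the scalings, tools and filters and from −0.18 to −0.15 over the 6 fits that omit a library, while the median of all genes lay between −0.0123 (library size alone) and 0.0183 (no filter). Of the 31 members, 25 passed in every fit, and the other 6 (ORC6, CDC45, RFC3, POLA1, POLD2 and POLD3) did not pass in 1 to 3 of the 6 fits without a library, with values given above. GINS3, PRIM1, RFC1 and RRM1 passed with library size alone (FDR 0.0329, 0.0416, 0.0387 and 0.0318). No member that passed changed sign in any of these fits. Causes were not tested.

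With the replicate number as a block, the paired analysis again gave 31 members lower and 0 higher, and the median was −0.16 on the log2 scale. Deviations of same-numbered libraries from their group means correlated at −0.00806, −0.0196 and −0.0157, and no library correlated best with its own number. No shared variation of same-numbered libraries was thus seen, which does not show how the libraries were made.

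At a simulated log2 change of 0.2, edgeR recovered 97 of 200 changed genes at this depth with 3 libraries per group. That simulation changed far fewer genes than passed here, gave every gene the same variation and changed only well-covered genes. The recovered share therefore does not carry over to this set. A missed threshold still does not show an equal level.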
